A study of Phaseolus vulgaris with 24 samples.

Results

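Leaf and root tissue of unstressed TR43477 plants were compared across all genes. TR43477 is the common bean (Phaseolus vulgaris) genotype described by the study as salt-susceptible. The comparison used every library labelled as TR43477 under the control treatment, 6 of 24 libraries in all: 3 of leaf and 3 of root, with plants as the biological replicates. The other 18 libraries were TR43477 leaf and root after salt, and leaf and root of Ispir, the salt-tolerant genotype, with and without salt. All plants were raised on Hoagland nutrient solution in hydroponics, and the salt-treated ones received sodium chloride that was stepped up to 125 mM. RNA was enriched for poly(A) and sequenced as stranded libraries, and reads were counted per gene model of the P. vulgaris v2.1 genome. The study names leaf and root tissue of 3 plants as its replicates, so both tissues may come from the same plants. The labels do not tie a leaf and a root library to 1 plant, so the 2 tissues were compared without pairing. A fit that pairs them by replicate number is given at the end.

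A leaf blade is built around the chloroplast, in which light-harvesting antenna proteins pass energy to photosystems II and I, an electron transport chain links the photosystems, an ATP synthase uses the resulting proton gradient, and Rubisco fixes carbon dioxide. A root has no light to harvest: it imports sucrose, breaks it down for energy and carbon skeletons, and takes up water, nitrate, potassium and metals such as iron, zinc and manganese from the solution around it. Roots of legumes also make phenolic compounds that are held in the tissue or released. Most genes described below come from 33 lists holding 375 distinct genes. The study had named most of these genes around its salt responses, partly from these same control libraries. The grouping was not in every case the study's own, and the root genes used to check the tissues were picked here. The lists are therefore a way of grouping genes and not an independent sample of them.

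The deposited counts summed to between 13087511 and 14377912 per leaf library and between 13321924 and 16742603 per root library. A count was present for 20084 to 20786 genes in a leaf library and for 21968 to 22297 in a root library. Tissue set the libraries apart: the Pearson correlation of their log2 CPM was 0.902 to 0.9503 among leaves and 0.954 to 0.971 among roots, but 0.596 to 0.637 between a leaf and a root. CPM is the usual depth-corrected count, here with library totals scaled by the trimmed mean of M-values (TMM), which makes libraries comparable for 1 gene but does not correct for gene length, so a difference in CPM between genes is not one in level. Leaf 3 stood furthest from its replicates, with 6.18% of 17053 expressed genes more than 4-fold away from the mean of the other 2 leaves, against 3.91% in leaf 1 and 2.18% in leaf 2, and no more than 1.43% in a root library. The labelled tissues were checked against 50 leaf genes (antenna, photosystem and Rubisco) and 2 root genes (a ferric reduction oxidase and a nitrate transporter): the summed CPM of the leaf genes was 59530, 87960 and 116000 in leaves, against 199, 205 and 607 in roots, and that of the root genes was 0.263, 0.580 and 0 in leaves, against 1584, 1190 and 634 in roots. Both root genes were picked from a list of 9 uptake genes described below, whose median log2 fold change of leaf over root was 1.39. Another nitrate transporter of that list was higher in leaf, so the root side of this check rests on 2 picked genes. In bulk tissue, fewer cells of a type and less RNA per cell cannot be told apart.

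Leaf and root differed widely. Of 27213 gene models, 23906 had a count in these libraries and were tested. By edgeR's quasi-likelihood test of 3 against 3 libraries, 5404 passed an adjusted p of 0.01 (Benjamini-Hochberg) together with a change of more than 1 on the log2 scale; these are the called genes, 2796 higher in leaf (11.7% of those tested) and 2608 higher in root (10.9%). The changes were large, with a median size of 3.82 on the log2 scale among the leaf-higher genes and 5.34 among the root-higher ones, while the median over all tested genes was -0.07. No count was found in any root library for 225 of the leaf-higher genes (8.05%), whereas 666 of the root-higher genes (25.5%) had no count in any leaf library. Over all tested genes, 876 had a count in leaf only and 2062 in root only. A count of 3 stood for 0.242 to 0.290 CPM in leaf libraries and 0.152 to 0.184 CPM in root libraries, so a gene could more easily go unread in leaf. The balance of directions depended on the scaling: with plain library totals in place of TMM the median gene moved by -0.52 and 36.4% of 6038 calls were higher in leaf, against 51.7% with TMM. The count also changed when 1 library was left out. It was 2740 without root 1, 2594 without root 2 and 3245 without root 3. Without leaf 1, leaf 2 or leaf 3 it was 4467, 3842 and 6888. Such a fit also has 1 replicate fewer, so a lower count is not by itself a trait of the library left out. Below, a gene is said to be called when it passed both thresholds, and the root or leaf libraries whose removal ended a named gene's call are given with the adjusted p that resulted.

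The genes of the photosynthetic machinery were nearly all called higher in leaf. Of 59 nuclear genes for antenna proteins, photosystem subunits, electron carriers, ATP synthase and Rubisco, 55 were called higher in leaf and none higher in root, and their median log2 fold change was 9.16, beside -0.07 over all genes. Together these genes took 5.64%, 7.40% and 10.7% of all counts in the leaf libraries, against 0.0280%, 0.0270% and 0.0804% in the root libraries. The mean share was 7.92 ± 2.59% in leaves and 0.0451 ± 0.0305% in roots (SD, n = 3 each), a ratio of 176, and the groups did not overlap; a two-sided exact permutation test gave p = 0.1, the smallest value that 3 against 3 allows. Each part of the machinery had its own ratio of mean shares: 819 for the photosystem I antenna, 414 for Rubisco, 395 for photosystem I subunits, 200.2 for electron transport, 150 for photosystem II subunits, 120 for the photosystem II antenna and 59.7 for the ATP synthase. Leaf 3 had the highest share in every one of these parts, and so did root 3 among the roots.

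**Figure D1:**
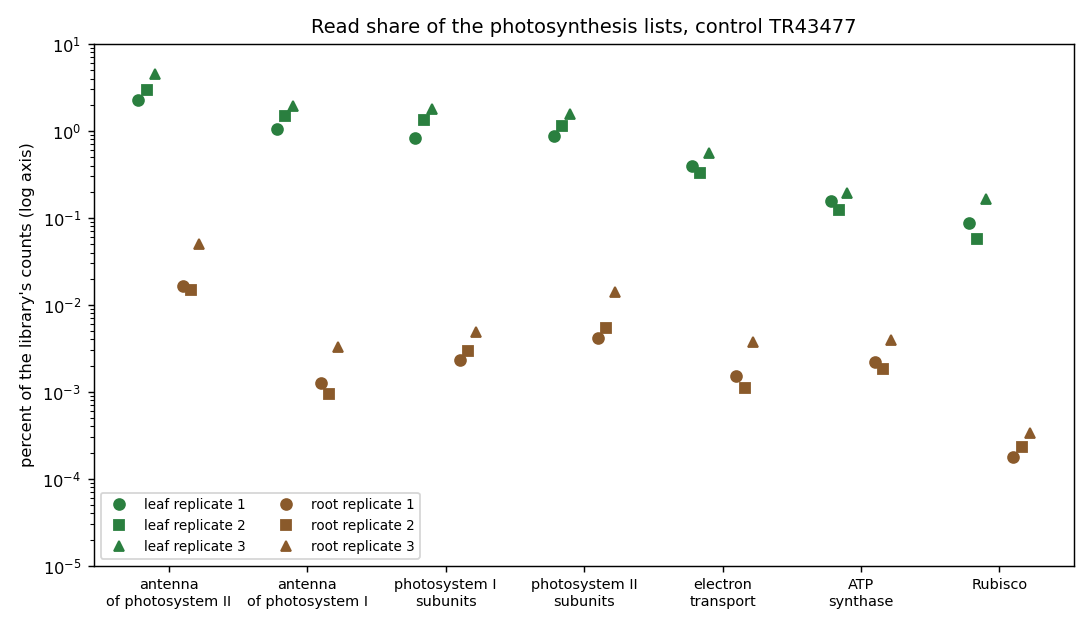
Percent of each library's counts (log axis) taken by 7 groups of photosynthesis genes in control TR43477, with 1 point per library, leaf in green and root in brown. In every group all 3 leaf points lie above all 3 root points; over the groups together the share was 5.64% to 10.7% in leaves and 0.0270% to 0.0804% in roots.

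The photosystem II antenna proteins (Lhcb), which bind chlorophyll a and b, were called higher in leaf for 13 of 16 genes, with a median log2 fold change of 9.70. An Lhcb1 gene, Phvul.002G196400 (chromosome 2, 36094319 to 36095316, minus strand), had 11470, 16290 and 13780 CPM in leaves, against 28.1, 21.4 and 50.9 CPM in roots. Its log2 fold change was 8.69 ± 0.77 (SE, adjusted p = 0.00039, edgeR). The 2 genes for the minor antenna protein Lhcb5 differed in the size of the contrast. Phvul.007G113000 had 202, 618 and 1307 CPM in leaves, against 0.0614, 0.0508 and 0 CPM in roots, the largest fitted change of the list at 13.91 ± 1.20. Its root values lie below the 0.152 to 0.184 CPM that 3 counts make in a root library, so the size of its change is poorly fixed. Phvul.004G128200, also Lhcb5, had 4599, 5021 and 6159 CPM in leaves, against 19.3, 17.7 and 86.0 CPM in roots, a change of 7.002 ± 0.91. Lhcb6 (Phvul.002G207500), at 1060, 1403 and 2474 CPM in leaves against 0, 0.355 and 0.289 CPM in roots, was 12.81 higher on the log2 scale, and the smallest called change was that of Lhcb4 (Phvul.010G002100) at 5.88 ± 0.62.

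Further Lhcb1 copies were scarce in root but uneven among leaves. In the stretch of chromosome 4 from 23117065 to 23321146, 5 neighbouring tested genes, bounded by Lhcb1 genes Phvul.004G091600 and Phvul.004G092600, were all called higher in leaf. Phvul.004G092600 had 98.1, 304 and 1050 CPM in leaves 1, 2 and 3, against 0, 0.152 and 0.116 CPM in roots, and Phvul.004G091600 had 1.75, 3.58 and 11.2 CPM in leaves, with no count in any root, at least 32.5-fold higher when roots are set to a floor of 3 counts per library. The call of Phvul.004G091600 was lost without leaf 1, leaf 2, root 1, root 2 or root 3 (adjusted p 0.01001 to 0.0279, edgeR). The 3 antenna genes that were not called were also Lhcb1 copies with no root count and a wide spread among leaves: Phvul.004G093200 had 3.85, 21.1 and 121 CPM (adjusted p = 0.0181, edgeR), Phvul.002G154700 had 3.77, 5.42 and 38.3 CPM (0.0134) and Phvul.002G154500 had 1.75, 4.16 and 21.6 CPM (0.0152). In every one of these copies leaf 3 was the highest. The copies are close relatives, and how reads shared between them were counted was not given in the sources used here, so their individual levels are uncertain.

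The photosystem I side was uniform. All 7 antenna genes (Lhca) and all 10 subunit genes were called higher in leaf, with median log2 fold changes of 10.98 and 9.65. Lhca4 (Phvul.009G186500) had 1933, 3466 and 5373 CPM in leaves, against 0.982, 1.12 and 1.10 CPM in roots, 11.71 ± 0.72 higher. Lhca1 (Phvul.004G071500) had 2770, 4261 and 4953 CPM in leaves, against 2.46, 1.88 and 1.56 CPM in roots, 10.98 ± 0.61 higher. Root levels of both genes were even from library to library. One Lhca2 gene, Phvul.009G225500, had 38.97, 35.9 and 61.6 CPM in leaves and no count in any root library, at least 268-fold higher. Among the subunits, PsaH (Phvul.010G148800) and a PsaK gene (Phvul.009G216400) were each about 11 higher in leaf on the log2 scale, while the other PsaK gene, Phvul.002G140800, was read in every root library, at 189, 468 and 829 CPM in leaves against 6.32, 10.9 and 7.63 CPM in roots, 5.90 ± 0.66 higher.

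Photosystem II subunits, which split water and pass on its electrons, were called higher in leaf for 13 of 14 genes (median 6.80). PsbO (Phvul.002G024000), which stabilises the oxygen-evolving cluster, had 2550, 3797 and 4404 CPM in leaves, against 1.41, 1.27 and 1.503 CPM in roots, 11.32 ± 0.57 higher. PsbS (Phvul.009G125100), needed for the harmless loss of excess light as heat, had 1908, 2473 and 1218 CPM in leaves, against 1.10, 1.07 and 0.289 CPM in roots, and here leaf 3 was the lowest leaf. A second PsbO gene, Phvul.003G249800, had 1544, 2297 and 3972 CPM in leaves, against 3.68, 8.63 and 46.6 CPM in roots, a change of 7.05 that was not called without leaf 2 (adjusted p = 0.0139, edgeR), root 1 (0.0118) or root 2 (0.0237). The only subunit not called was a Psb28 gene, Phvul.001G165200, at 9.28, 8.51 and 11.3 CPM in leaves against 3.38, 6.25 and 3.99 CPM in roots (log2 fold change 1.09, adjusted p = 0.0436).

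Electron transport, ATP synthase and Rubisco followed the photosystems, with 7 of 7, 2 of 2 and 3 of 3 genes called higher in leaf and medians of 7.98, 6.37 and 9.42. PetH (Phvul.003G263200), the ferredoxin-NADP reductase that delivers electrons to NADP, had 1796, 1780 and 1573 CPM in leaves, against 1.29, 1.37 and 3.87 CPM in roots. Plastocyanin (PetE, Phvul.009G020300), the copper protein between the cytochrome complex and photosystem I, was 9.42 ± 0.96 higher. A ferredoxin gene (PetF, Phvul.006G216700) had 8.49, 14.7 and 127 CPM in leaves and 2 counts in all roots together, a ratio of totals of 1417 with a 95% counting interval of 391.7 to 11710, and its call was lost without root 1 (adjusted p = 0.0226, edgeR), root 2 (0.0251) or root 3 (0.0326). The gamma subunit of the ATP synthase (Phvul.006G149700) had 1395, 1132 and 1332 CPM in leaves, against 3.62, 6.65 and 13.01 CPM in roots. The 3 Rubisco genes lie close together on chromosome 4 (9431905 to 9502854), and the one with the largest change, Phvul.004G073400, had 482, 344 and 1145 CPM in leaves, against 0.123, 0.0508 and 0.463 CPM in roots, 11.56 ± 1.03 higher. They are a small multigene family, so their separate levels carry the same uncertainty as those of the Lhcb1 copies.

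Roots were low in these transcripts but seldom empty of them. Of the 59 genes, 47 had a count in every root library and 5 had none in any. Root 3 was the highest root library for 39 of them and exceeded each of the other roots at least 2-fold for 25. Lhcb2 (Phvul.008G285100) was the plainest case, with 3449, 5157 and 10310 CPM in leaves, against 13.7, 11.7 and 141 CPM in roots; its log2 fold change of 6.83 was not called without leaf 1, leaf 2, leaf 3, root 1 or root 2 (adjusted p 0.0120 to 0.0299, edgeR). The source of these low root counts was not tested.

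The other lists were more mixed, and among all 372 tested list genes 116 were called higher in leaf and 61 higher in root (median 1.33). Some lists had more root-higher than leaf-higher calls and a median of -1.32 or lower. They were zinc transport, phenylpropanoid, sucrose, lysine catabolism (2 genes), the root salt-response genes and the 2 root genes of the tissue check. Some genes are in more than 1 list. Members chosen for a salt response in root had to be read there, so these leans are not independent of that choice. Over all tested genes 11.7% were called higher in leaf and 10.9% higher in root, and the counts below are to be read beside these shares. The lists are taken here by the role of their members.

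**Figure D2:**
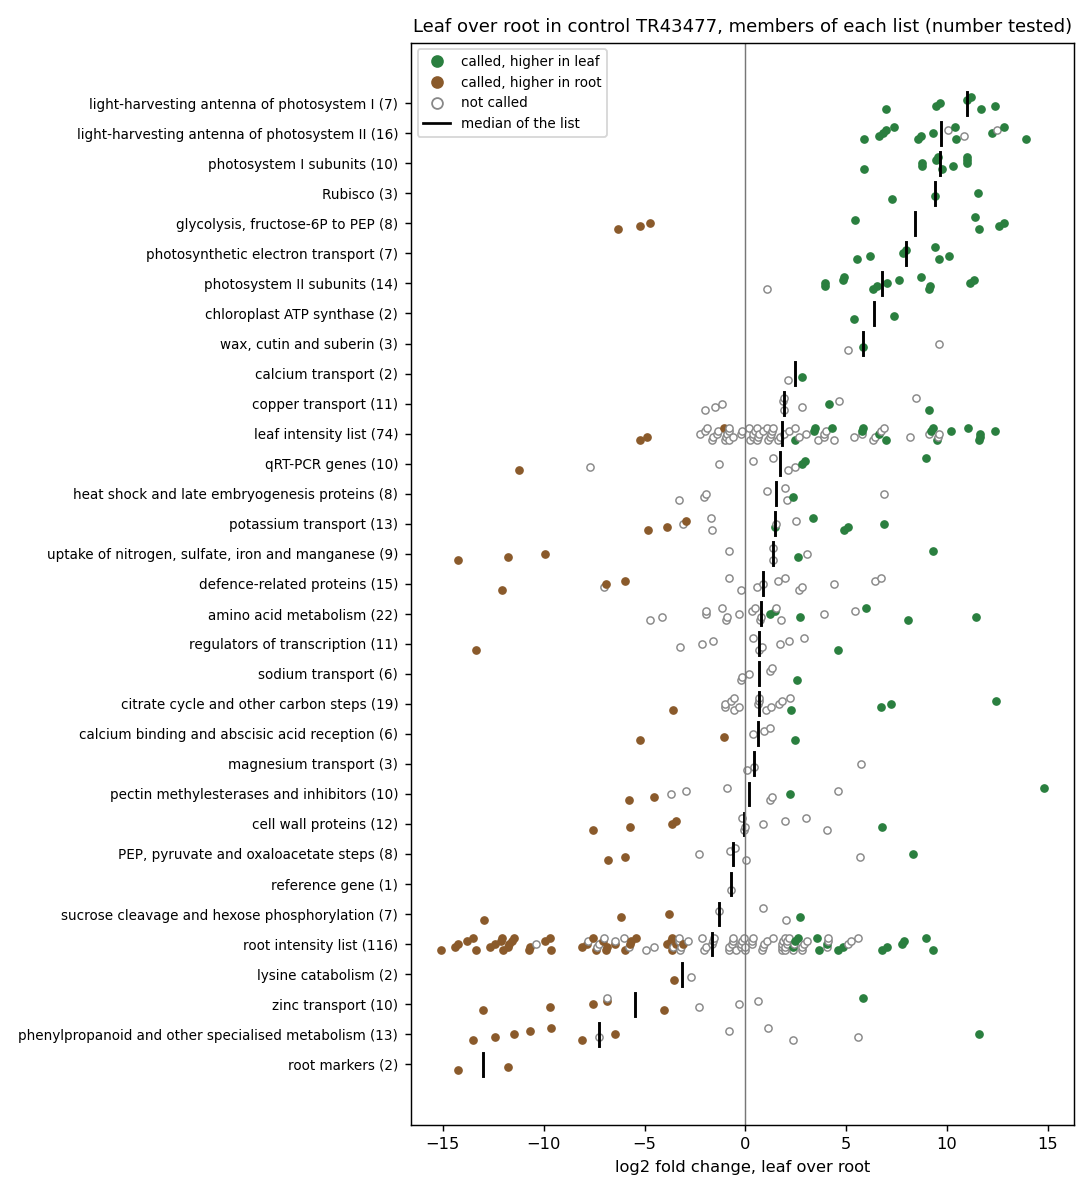
Log2 fold change of leaf over root for each tested member of each list, control TR43477, with the number tested in parentheses, filled points for called genes (green, higher in leaf; brown, higher in root), open points for genes not called and a bar at the list's median. The photosynthesis lists lie between 1.09 and 13.91, whereas the phenylpropanoid list has a median of -7.25 and the zinc list one of -5.45.

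Glycolysis genes were called in both directions. Of 8 genes that the study placed between fructose 6-phosphate and phosphoenolpyruvate (PEP), a span of several enzymes at the core of glycolysis, 5 were called higher in leaf and 3 higher in root, and none was left uncalled. On the leaf side Phvul.011G039100 (chromosome 11, 3560198 to 3563082, minus strand) had 9551, 5761 and 5671 CPM in leaves, against 1.17, 1.52 and 0.752 CPM in roots, 12.56 ± 0.76 higher. Phvul.008G282000 had 958, 716 and 146 CPM in leaves, against 0.0614, 0.152 and 0 CPM in roots (12.84 ± 1.24), and Phvul.001G098100, Phvul.009G006600 and Phvul.005G050700 were 11.61, 11.38 and 5.42 higher in leaf. On the root side Phvul.007G222900 had 15.3, 11.3 and 11.2 CPM in leaves, against 1219, 1424 and 332 CPM in roots (-6.29 ± 0.68). Phvul.001G259000 had 119, 21.4 and 40.9 CPM in leaves, against 2171, 3602 and 939 CPM in roots (-5.21), and Phvul.001G045700 was low in both tissues, at 0.350, 0.193 and 0 CPM in leaves against 5.53, 4.16 and 5.26 CPM in roots (-4.74). The calls of these last 2 root-higher genes were lost without leaf 2 (adjusted p = 0.0138 for Phvul.001G259000 and 0.0212 for Phvul.001G045700, edgeR), root 1 (0.0162 and 0.0253) or root 2 (0.0160 and 0.0226), and also without leaf 3 for Phvul.001G259000 (0.0122) or root 3 for Phvul.001G045700 (0.0222).

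At the PEP branch point, where carbon can be turned to oxaloacetate or to pyruvate, 1 of 8 genes was called higher in leaf and 2 higher in root (median -0.63). A gene for the conversion of pyruvate to PEP, Phvul.003G098200, had 1399, 2459 and 244 CPM in leaves, against 3.19, 4.16 and 5.49 CPM in roots, 8.32 ± 1.04 higher, a call lost only without root 2 (adjusted p = 0.0108, edgeR). Among the genes for carboxylation of PEP to oxaloacetate 1 was called. Phvul.005G066400 had 3.77, 1.16 and 1.70 CPM in leaves, against 269, 450.4 and 38.0 CPM in roots (-6.83 ± 1.08), and this call was lost without leaf 2 (0.0168), root 1 (0.0116) or root 2 (0.0105). Phvul.005G095300 had 4466, 533 and 216 CPM in leaves, against 13.2, 82.8 and 5.55 CPM in roots, and with that spread its log2 fold change of 5.68 ± 1.66 was not called (adjusted p = 0.0349). For the opposite step, oxaloacetate to PEP, Phvul.003G285900 had a single leaf count against 125 root counts, a ratio of 80.1 root over leaf (95% counting interval 14.1 to 3189), and was called, although not without leaf 2, root 1, root 2 or root 3 (0.0103 to 0.0154).

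Of 7 sucrose and hexose genes, 3 were called higher in root and 1 higher in leaf (median -1.32). Reversible cleavage of sucrose was represented by 3 genes. Those called were Phvul.003G127500, with 85.8, 21.8 and 52.8 CPM in leaves, against 3328, 3651 and 4375 CPM in roots (-6.14 ± 0.68, adjusted p = 0.00089, edgeR), and Phvul.009G223800, with 54.5, 63.8 and 75.1 CPM in leaves, against 1002, 1290 and 403 CPM in roots (-3.80 ± 0.50). The other, Phvul.001G209600, had 33.8, 24.0 and 17.1 CPM in leaves, against 2.15, 4.32 and 11.97 CPM in roots, and was not called (2.02 ± 0.65, adjusted p = 0.0475). A gene for irreversible hydrolysis of sucrose, Phvul.002G061200 (chromosome 2, 7107566 to 7110641, minus strand), had no count in any leaf, against 84.5, 53.5 and 67.1 CPM in roots, at least 258-fold higher in root. The leaf-higher member acts on glucose: Phvul.008G180200, placed between glucose and fructose 6-phosphate, had 51.7, 88.2 and 80.7 CPM in leaves, against 12.7, 12.8 and 8.73 CPM in roots (2.69 ± 0.30). None of the 4 calls was lost when any 1 library was left out.

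**Figure D3:**
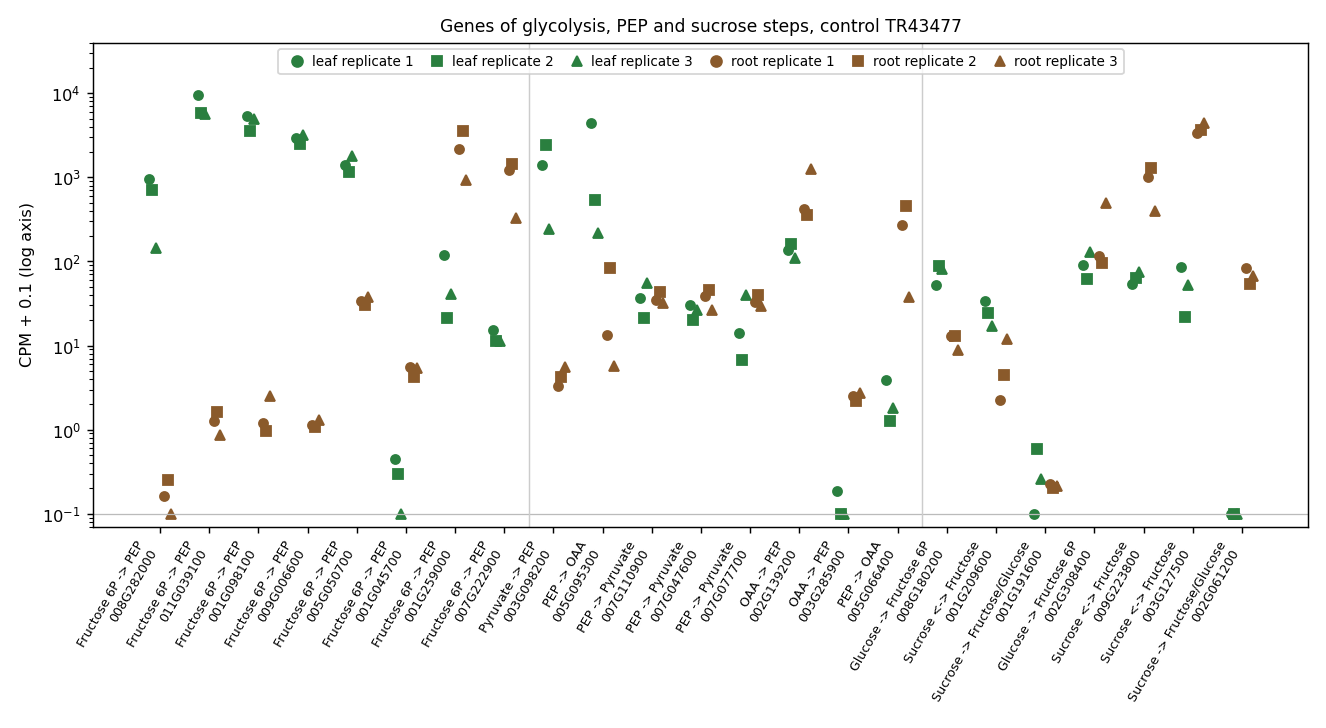
CPM plus 0.1 (log axis) of the genes at the glycolysis, PEP and sucrose steps in each library of control TR43477, leaf in green and root in brown, a shape for each replicate and OAA for oxaloacetate; points on the grey line have no count. Of the 8 glycolysis genes 5 lie far higher in leaf and 3 far higher in root, and Phvul.002G061200 has no count in any leaf.

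Among 19 genes of the citrate cycle and neighbouring carbon steps, 4 were called higher in leaf and 1 higher in root (median 0.70). The step that the study labels as leading from fructose 6-phosphate to "Therose" was represented by Phvul.007G006600, with 2970, 1894 and 2316 CPM in leaves, against 0.368, 0.813 and 0.0578 CPM in roots (12.45 ± 1.01). Glycolate, the by-product of oxygen fixation by Rubisco, is oxidised in the photorespiratory pathway, and the 2 genes placed between glycolate and malate pointed in opposite directions. Phvul.005G051800 had 2057, 1930 and 1797 CPM in leaves, against 7.61, 3.61 and 42.3 CPM in roots (6.76 ± 1.10; not called without leaf 2, adjusted p = 0.0124, edgeR, or root 1, 0.0183), and Phvul.001G001000 had 16.5, 13.2 and 39.5 CPM in leaves, against 241, 243 and 356 CPM in roots (-3.60 ± 0.50). The aspartate to beta-alanine gene Phvul.004G144500 was 7.24 higher in leaf and not called without root 1 (0.0159) or root 2 (0.0112). The leaf-higher count of this list was 1 without root 1 and 2 without root 2, and its root-higher count was 2 without leaf 3.

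Of 22 amino acid genes, 6 were called higher in leaf and none higher in root (median 0.76), although 1 was called higher in root without leaf 1 or without leaf 3. The largest changes were in genes tied to glycine and serine, the photorespiratory amino acids: Phvul.003G286600 (threonine by way of serine and glycine) had 2501, 2182 and 1575 CPM in leaves, against 0.614, 1.12 and 0.520 CPM in roots (11.42 ± 0.61), and Phvul.006G029100 (glycolate to serine) had 1745, 2529 and 1952 CPM in leaves, against 4.67, 7.57 and 10.8 CPM in roots (8.08 ± 0.54). A glutamine gene, Phvul.006G155800, had 1727, 1554 and 1798 CPM in leaves, against 31.7, 30.9 and 18.3 CPM in roots (5.97 ± 0.41). An asparagine gene, Phvul.008G259900, varied widely among leaves, at 27580, 16930 and 4918 CPM against 632, 453 and 55.5 CPM in roots, and was not called (log2 fold change 5.44 ± 1.23, adjusted p = 0.0139).

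Of 10 zinc transport genes, 5 were called higher in root and 1 higher in leaf (median -5.45). A gene annotated as a zinc transporter 10 precursor, Phvul.002G099700 (chromosome 2, 19275657 to 19278222, minus strand), had 0.263, 0.0967 and 0 CPM in leaves, against 1336, 1032 and 738 CPM in roots (-13.00 ± 0.87), and a gene of the same annotation further along the chromosome (19321798 to 19324224), Phvul.002G100001, had 1.49, 1.06 and 1.70 CPM in leaves, against 208, 163 and 132 CPM in roots (-6.87 ± 0.34). Phvul.003G021300, another zinc transporter, was -9.67 ± 0.66 and the zinc-exporting ATPase Phvul.009G240000 was -4.05 ± 0.38. The 2 genes annotated as zinc transporter 11 differed in direction. Phvul.006G055800 had 93.4, 248 and 131 CPM in leaves, against 2.70, 2.996 and 2.60 CPM in roots (5.83 ± 0.46), and Phvul.L007443, on the files' entry numbered 12, had no leaf count against 1.90, 1.78 and 1.21 CPM in roots, at least 6.16-fold higher in root but not called without leaf 2, root 1, root 2 or root 3 (adjusted p 0.0111 to 0.0311, edgeR). A metal tolerance protein gene, Phvul.008G244200, had no count in any leaf, against 411, 352 and 134 CPM in roots, at least 1127-fold higher in root.

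Uptake of iron, manganese, nitrogen and sulfate was covered by 9 genes, of which 3 were called higher in root and 2 higher in leaf (median 1.39). The ferric reduction oxidase 2-related gene Phvul.010G101500 (chromosome 10, 37043316 to 37048982, minus strand), whose Arabidopsis relative reduces ferric iron at the root surface, had 0.263, 0.580 and 0 CPM in leaves, against 1233, 1086 and 583 CPM in roots (-11.76 ± 1.03). A manganese transporter, Phvul.009G127900, had 2.19, 3.19 and 1.29 CPM in leaves, against 1812, 2801 and 2008 CPM in roots (-9.95 ± 0.61). Nitrate transport had a gene on either side. Phvul.011G083500, of the nitrate/nitrite (NNP) family, had no leaf count, against 351, 104 and 50.4 CPM in roots, at least 636-fold higher in root, and Phvul.003G164000, of the NRT1/PTR family, had 709, 283 and 78.1 CPM in leaves, against 0.982, 0.508 and 0.173 CPM in roots (9.32 ± 1.18). Both nitrate calls were lost without root 2 (adjusted p = 0.0144 for Phvul.011G083500 and 0.0113 for Phvul.003G164000, edgeR), and the first also without leaf 2 (0.0103). A sulfate transporter 3.1-related gene, Phvul.001G154200, was 2.62 ± 0.42 higher in leaf and was not called without leaf 1, leaf 2, root 1 or root 2 (0.0103 to 0.0191).

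Phenylpropanoid and other specialised metabolism, the source of lignin, coumarins and isoflavonoids, had 7 of 13 genes called higher in root and 1 higher in leaf, with a median of -7.25. The 2 feruloyl-CoA ortho-hydroxylase genes, whose Arabidopsis relative opens the route to scopoletin, were both root genes. Phvul.010G036100 (chromosome 10, 5341617 to 5344352, minus strand) had 3 counts in all leaves together, at 0.0876, 0.193 and 0 CPM, against 1574, 1451 and 396 CPM in roots (-13.51 ± 1.10), and Phvul.005G061066 had none, against 63.2, 61.9 and 14.2 CPM in roots, at least 175-fold higher in root (not called without root 1, adjusted p = 0.0108, edgeR, or root 2, 0.0129). An isoflavone 2'-hydroxylase, Phvul.009G244200, of the route to legume phytoalexins, had 0.0876, 0.484 and 0 CPM in leaves, against 52.7, 36.2 and 64.2 CPM in roots (-8.08 ± 0.83), and an O-methyltransferase, Phvul.008G247600, had no leaf count, against 16.6, 21.3 and 34.5 CPM in roots, at least 91.1-fold higher in root. The single leaf-higher gene was a quinate O-hydroxycinnamoyltransferase, Phvul.002G025600, which joins phenolic acids to quinate, at 110, 74.2 and 236 CPM in leaves and 2 counts in all roots (11.58 ± 0.95).

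Root 3 was the lowest root for both ortho-hydroxylase genes and for the genes given next. A cytochrome P450 82C2-related gene, Phvul.009G061600, had 0.350, 0.677 and 0 CPM in leaves, against 1596, 1449 and 423 CPM in roots (-11.73 ± 1.23), and a putative benzoyltransferase, Phvul.006G178300, had 0, 0.193 and 1.78 CPM in leaves, against 701, 793 and 165 CPM in roots (-9.66 ± 1.47; not called without leaf 2, root 1 or root 2, adjusted p 0.0108 to 0.0148, edgeR). A cinnamyl-alcohol dehydrogenase, Phvul.011G022300, of monolignol synthesis, had no leaf count, against 13.3, 25.5 and 3.24 CPM in roots, at least 52.8-fold higher in root, and its call held only without root 3 among the leave-one-out fits (0.0109 to 0.0252 in the others). The root-higher count of the phenylpropanoid list was 3 without root 1, 4 without root 2 and 4 without leaf 2.

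**Figure D4:**
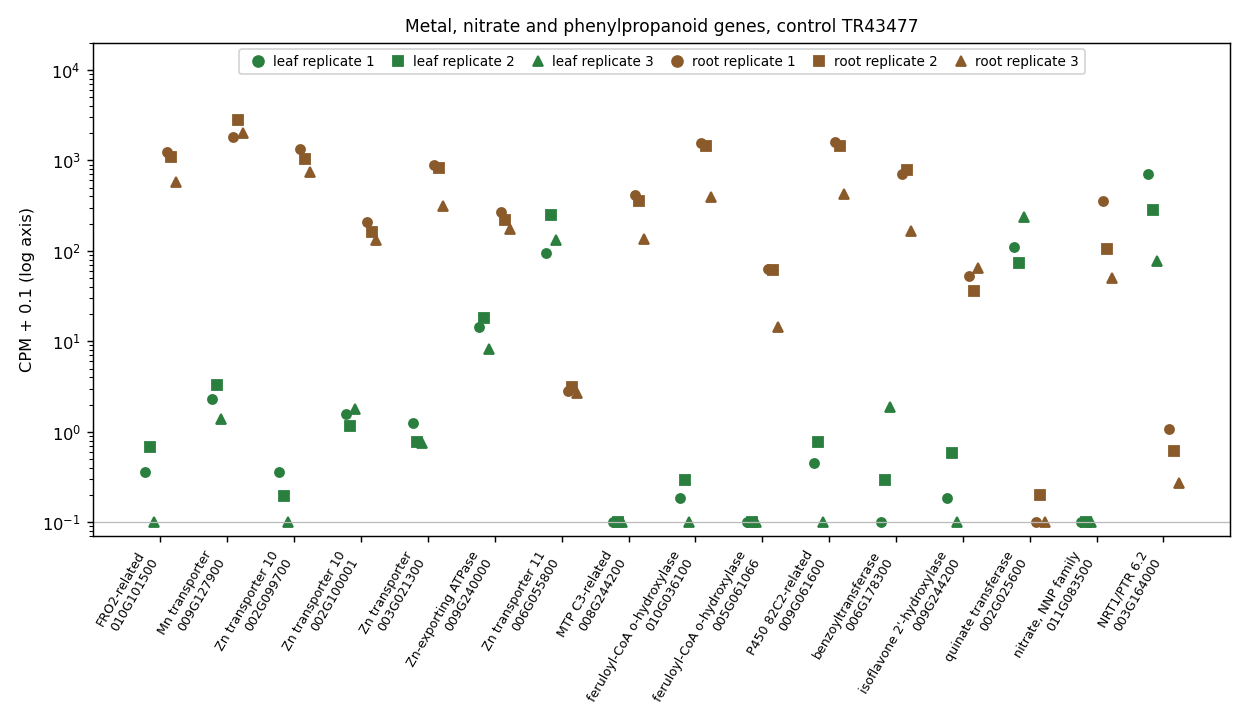
CPM plus 0.1 (log axis) of metal, nitrate and phenylpropanoid genes in each library of control TR43477, leaf in green and root in brown, with a shape for each replicate; points on the grey line have no count. Root lies above leaf in every gene except Phvul.006G055800, Phvul.002G025600 and Phvul.003G164000, which had higher CPM in all leaves.

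Of 13 tested potassium transport genes, 5 were called higher in leaf and 3 higher in root (median 1.49). The largest leaf-higher change was in a channel gene named after Arabidopsis KAT1 (Phvul.006G164300), with 4.47, 5.61 and 6.06 CPM in leaves and 2 counts in all roots (ratio of totals 143.6, 95% counting interval 39.19 to 1194). The efflux antiporter genes, whose Arabidopsis relatives sit in chloroplast membranes, were also higher in leaf. K+ efflux antiporter 2 (Phvul.010G095600) had 340.1, 348 and 100.1 CPM in leaves, against 6.82, 6.80 and 9.48 CPM in roots (5.09 ± 0.57), and antiporter 3 (Phvul.002G216200) was 4.87 ± 0.49 higher. The outward channel gene related to GORK, Phvul.008G238100, had 20.9, 15.4 and 11.7 CPM in leaves, against 212, 218 and 288 CPM in roots (-3.90 ± 0.31), and K+ transporter 1 (Phvul.002G185300) was -4.84 ± 0.67, a call lost without leaf 2 (adjusted p = 0.0111, edgeR). K+ uptake permease 6 (Phvul.002G331700) was -2.97 ± 0.52 and was not called without leaf 1, root 1, root 2 or root 3 (0.0133 to 0.0274). The count of leaf-higher potassium genes was 3 without root 1 or root 2, and that of root-higher ones was 5 without leaf 3.

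Copper transport had 2 of 11 genes called higher in leaf and none higher in root (median 1.94). Phvul.008G282200 had 129, 92.2 and 38.8 CPM in leaves, against 0.0614, 0.355 and 0 CPM in roots (9.12 ± 1.00), while Phvul.004G106900, with 372, 729 and 80.8 CPM in leaves against 28.7, 18.6 and 19.2 CPM in roots, kept its call only without leaf 3 (adjusted p 0.0161 to 0.0384 in the other leave-one-out fits, edgeR). Without leaf 3 the copper list had 5 leaf-higher genes, and 1 without any 1 of leaf 1, leaf 2, root 1 and root 2; without leaf 1 it also had 1 root-higher gene. Calcium transport had 1 of 2 genes called higher in leaf, Ca+2 exchanger 7 (Phvul.001G105400) at 2.82 ± 0.45, which was not called without leaf 2, root 1 or root 2 (0.0105 to 0.0140). Sodium transport had 1 of 6 called higher in leaf, Phvul.002G127200 (2.56 ± 0.52, adjusted p = 0.00956), a call that held without leaf 3 but in no other leave-one-out fit (0.0127 to 0.0414) and was lost with RLE (0.0102) or upper-quartile scaling (0.0128), library totals (0.0184), no filter (0.0109) and glmTreat (0.0246). Magnesium transport had none of 3 called, and the medians of the sodium and magnesium genes were 0.70 and 0.42.

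Of 6 calcium-binding and abscisic acid receptor genes, 1 was called higher in leaf and 2 higher in root; the receptor gene PYL5 (Phvul.008G220600) had 0.788, 3.095 and 2.91 CPM in leaves, against 83.1, 111 and 56.7 CPM in roots (-5.20 ± 0.58), and PYL4 (Phvul.010G065400) had 20.0, 27.1 and 25.8 CPM in leaves, against 52.6, 53.6 and 44.5 CPM in roots (-1.05 ± 0.21), called here and without leaf 3 but in none of the other leave-one-out fits (adjusted p 0.0158 to 0.0416, edgeR). The leaf-higher gene of this list, a calmodulin (Phvul.008G037300) at 2.48 ± 0.48, kept its call only without leaf 3 (0.0207 to 0.0350 in the other leave-one-out fits). Of 11 regulators of transcription, 1 was called in each direction, near the 11.7% and 10.9% of all tested genes. The root-higher one, an achaete-scute homolog 3 (Phvul.001G126400, chromosome 1, 34902350 to 34904631, plus strand), had no count in any leaf, against 99.6, 80.4 and 88.2 CPM in roots, at least 337-fold higher in root. Without leaf 3 the regulators had 3 leaf-higher and 2 root-higher calls, and without leaf 2, root 1, root 2 or root 3 no leaf-higher call. Actin-11 (Phvul.008G011000), a reference gene of the study's qRT-PCR, had 295, 267 and 526 CPM in leaves, against 517, 649 and 607 CPM in roots (-0.70 ± 0.34, adjusted p = 0.15, edgeR), with leaf 3 inside the range of the roots.

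Cell wall genes had members for each tissue. Of 10 pectin methylesterases and their inhibitors, 2 were called in each direction: an inhibitor gene, Phvul.011G005300 (chromosome 11, 384259 to 385544, minus strand), had 308, 225 and 219 CPM in leaves and no count in any root, at least 1473-fold higher in leaf, and the methylesterases Phvul.004G175200 and Phvul.002G048700 were -5.78 ± 0.61 and -4.52 ± 0.54. Of 12 other cell wall genes, 1 was called higher in leaf and 4 higher in root, beside 11.7% and 10.9% of all tested genes. A pair of xyloglucan transferase genes, which cut and rejoin the hemicellulose chains, showed both directions. Phvul.011G085200 had 0.613, 0.484 and 0.0808 CPM in leaves, against 46.8, 107 and 70.4 CPM in roots (-7.57 ± 0.68), and Phvul.009G233200 had 1852, 2601 and 149.8 CPM in leaves, against 10.19, 6.50 and 24.8 CPM in roots (6.79 ± 1.25), a call that held only without leaf 3 among the leave-one-out fits (adjusted p 0.0148 to 0.0317 in the others, edgeR).

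None of 15 tested defence genes was called higher in leaf and 3 were called higher in root, among them a gene of the Bet v I family (Phvul.011G183000) with no leaf count, against 27.3, 23.4 and 60.6 CPM in roots, at least 140.1-fold higher in root, and a chitinase (Phvul.001G218600) at -6.90 ± 0.95, not called without leaf 2 (adjusted p = 0.0114, edgeR), when 1 defence gene in all was called. Of 8 heat shock and late embryogenesis genes, 1 was called, higher in leaf, near the 11.7% of all tested genes. It was an alpha-crystallin type heat shock gene (Phvul.008G112700) with 228, 269 and 226 CPM in leaves, against 43.0, 49.5 and 46.1 CPM in roots (2.38 ± 0.205). Without leaf 1, 2 genes of this list were called higher in leaf. Of 3 wax, cutin and suberin genes 1 was called higher in leaf, and none when any 1 of the libraries other than leaf 3 was left out.

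The 2 longest lists were the genes that the study singled out for the strength of their salt response. Of 74 tested genes picked in leaf, 17 were called higher in leaf and 3 higher in root (median 1.83), the last count being 6 without leaf 3 and 1 without any 1 of the roots. Of 116 tested genes picked in root, 14 were called higher in leaf and 38 higher in root (median -1.63). A salt response can be picked only in a tissue where the gene is read. The lean of each list toward its own tissue was therefore partly set by the picking. Among the genes picked in root, a Ca2+-independent phospholipase A2 (Phvul.001G020200) had no leaf count, against 124, 129.9 and 297 CPM in roots, at least 692-fold higher in root, and a gene of the pollen Ole e I type (Phvul.007G084600) was -11.56 ± 0.99. The leaf-picked list fell to 10 leaf-higher genes without root 2 or root 3 and to 11 without root 1, and the root-picked list to 6 leaf-higher genes without root 2, 7 without root 1 and 9 without leaf 2.

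Leaf 3 alone carried 2 of the leaf-picked genes. Beta-amylase 5 (Phvul.011G107700), which releases maltose from starch, had 16.6, 15.1 and 1415 CPM in leaves, against 26.6, 35.9 and 27.7 CPM in roots (4.003 ± 1.78, adjusted p = 0.12, edgeR). An eceriferum 26-related gene of wax synthesis (Phvul.003G050600) had 0.701, 0.484 and 200.5 CPM in leaves, against 0.246, 0 and 0 CPM in roots (9.63 ± 3.03, adjusted p = 0.0452). In neither gene do leaves 1 and 2 resemble leaf 3, and neither was called.

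Among called genes with at least 50 counts on average and no overlap between the tissues, the largest fold changes belonged to genes with no name in the sources used here. Phvul.002G008400 (chromosome 2, 910128 to 911783, plus strand) had 188, 253 and 715 CPM in leaves and no count in roots, at least 2266-fold higher in leaf, and Phvul.005G129500 had 335, 289.6 and 181 CPM in leaves and no count in roots, at least 1581-fold higher. In the other direction Phvul.005G052500 had no leaf count, against 743, 714 and 126 CPM in roots, at least 1990-fold higher in root (not called without root 2, adjusted p = 0.0108, edgeR), and Phvul.001G249700 had none, against 308, 269.6 and 519 CPM, at least 1379-fold higher in root. The gene with the highest mean CPM in leaf, a share of counts and not a level per length, was Phvul.001G234300, with 24300, 27910 and 18630 CPM in leaves, against 4.17, 5.08 and 3.24 CPM in roots (12.47 ± 0.89). In root it was Phvul.007G002400, with 155, 461 and 2067 CPM in leaves, against 14700, 17150 and 14080 CPM in roots, whose spread among leaves left it uncalled (-4.10 ± 1.07, adjusted p = 0.0238).

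Called genes were spread over the genome. Over the 11 chromosomes, 10.6% to 14% of tested genes were called higher in leaf and 9.05% to 12% higher in root, and in the files' entry numbered 12 the shares were 7.44% and 12.5%. Among the 11, chromosome 4 had both the highest leaf share and the lowest root share, and differences between chromosomes were not tested. The longest runs of neighbouring tested genes called in 1 direction were 7 genes long: Phvul.004G021500 to Phvul.004G022100 on chromosome 4 (2488480 to 2535767) and Phvul.009G255200 to Phvul.009G255800 on chromosome 9 (37569170 to 37627376), both higher in leaf, and Phvul.008G177100 to Phvul.008G177900 on chromosome 8 (50009959 to 50379652), higher in root.

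The same contrast in control Ispir shared most of these genes. In Ispir, fitted on its own 6 libraries, 3973 genes were called higher in leaf (16.7% of 23824 tested) and 5517 higher in root (23.2%). Of the 2781 TR43477 leaf-higher genes tested in both genotypes, 2329 (83.8%) were called higher in leaf in Ispir too, where they made up 59.0% of 3950, and 5 were called the other way. Of 2601 root-higher genes, 2259 (86.9%) were called higher in root in Ispir, 41.2% of its 5487, and again 5 the other way. The larger number of calls in Ispir went with a smaller spread between replicates (biological coefficient of variation 0.312, against 0.483 in TR43477), so the unequal counts are not by themselves a difference between genotypes. The median log2 fold change of the photosynthesis genes was 9.16 in TR43477 and 7.89 in Ispir, that of the zinc genes was -5.45 in TR43477 and -3.67 in Ispir, and that of the phenylpropanoid genes was -7.25 in TR43477 and -4.22 in Ispir. Other lists lay further from 0 in Ispir: the copper genes had a median of 1.94 in TR43477 and 2.76 in Ispir, and the defence genes one of 0.87 in TR43477 and 2.02 in Ispir. These differences between medians were not tested.

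The difference between the genotypes was tested directly. The tissue by genotype interaction over the 12 control libraries called 119 of 24459 genes (0.487%), and 4320 had an unadjusted p under 0.05 (edgeR). DESeq2 called 1142 genes, and a fit with the replicate number within genotype as a block called 0. Of the 119 calls, 62 had the higher leaf over root value in TR43477 and 57 the lower, and 54 had opposite signs in the 2 genotypes. The plainest reversal was Phvul.008G071300 (chromosome 8, 6507613 to 6525729, minus strand): TR43477 had 227, 280.1 and 356 CPM in leaves, against 101, 72.7 and 67.2 CPM in roots, while Ispir had 7.78, 7.93 and 14.5 CPM in leaves, against 172, 144 and 150 CPM in roots. Its log2 difference, TR43477 minus Ispir, was 5.69 ± 0.42 (adjusted p = 0.00041, edgeR). Phvul.010G124800 reversed in the same sense, at 5.38 in TR43477 and -3.87 in Ispir, a difference of 9.16. Phvul.011G169332 differed in size, being 1.40 in TR43477 and 10.41 in Ispir (difference -9.10), and Ispir roots had almost none: TR43477 had 12.1, 14.9 and 11.3 CPM in leaves, against 5.22, 4.47 and 4.799 CPM in roots, and Ispir 103, 93.7 and 109 CPM in leaves, against 0, 0.137 and 0.0659 CPM in roots. Within TR43477 alone, the calls of Phvul.008G071300 and Phvul.011G169332 were lost without leaf 2 (adjusted p = 0.0119 and 0.0232), root 1 (0.0111 and 0.0305), root 2 (0.0215 and 0.0357) or root 3 (0.0156 and 0.0244), the call of Phvul.011G169332 also without leaf 1 (0.0142), and that of Phvul.010G124800 without root 2 (0.0117).

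Of the 372 list genes tested in both genotypes, 2 were called in the interaction, a share close to the 0.487% of all tested genes. The zinc transporter 10 gene Phvul.002G100001 was higher in root in both genotypes, by -6.87 in TR43477 and -3.17 in Ispir (difference -3.80, adjusted p = 0.00103, edgeR). It stayed called whichever of the 12 libraries was left out, but not with the replicate block (adjusted p = 0.03496, edgeR). The glycolysis gene Phvul.009G006600 was 11.38 in TR43477 and 8.47 in Ispir (difference 2.81, adjusted p = 0.00715), but this call held in only 3 of the 12 leave-one-out fits (0.00703 to 0.0303). Some list genes with unlike values in the 2 genotypes did not pass the test: the glycolate to malate gene Phvul.001G001000 was -3.60 in TR43477 and -0.03 in Ispir (interaction adjusted p = 0.0123), and the Psb28 gene Phvul.001G165200 was 1.09 in TR43477 and -2.30 in Ispir (0.0127). The number of interaction calls was 16 without Ispir root 1 and 165 without TR43477 leaf 3, the ends of the leave-one-out range.

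**Figure D5:**
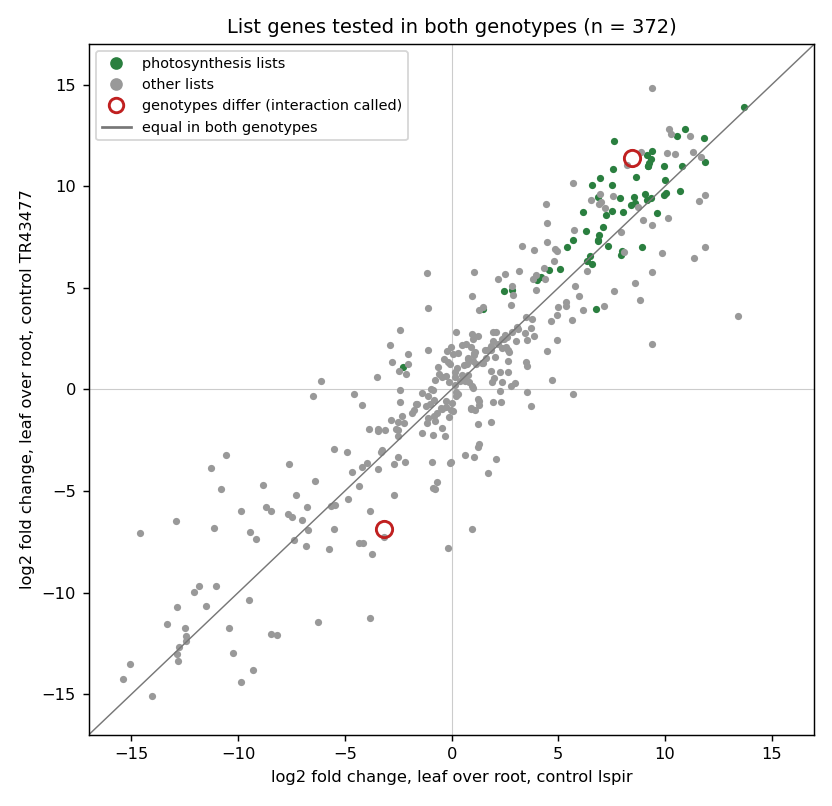
Log2 fold change of leaf over root in control TR43477 (vertical) against control Ispir (horizontal) for the 372 list genes tested in both, photosynthesis genes in green, other list genes in grey and the line of equal values drawn. The 2 red rings mark the list genes called in the interaction, Phvul.009G006600 at 11.38 and 8.47 and Phvul.002G100001 at -6.87 and -3.17.

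In salt-treated TR43477, a set of 6 libraries not used above, the tissue contrast was again largely the same. There 4948 genes were called higher in leaf (20.6% of 24075 tested) and 6812 higher in root (28.3%). Of 2795 leaf-higher genes of the controls, 2449 (87.6%) were called higher in leaf after salt, 49.8% of the 4922 called there, and 16 were called the other way; of 2608 root-higher genes, 2382 (91.3%) were called higher in root, 35.0% of 6804, and 23 the other way. The photosynthesis list had a median of 9.16 in controls and 6.76 after salt, with 55 genes called higher in leaf in each. The pectin methylesterase inhibitor gene Phvul.011G005300, at 14.83 in controls, was at 0.59 after salt, when leaves had 0, 0 and 0.0724 CPM.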

How the data were processed

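Per the labels and the study's methods, leaf and root RNA was extracted with an RNeasy kit, made into Truseq Stranded mRNA libraries and sequenced in paired ends on a NovaSeq. The authors checked reads with FastQC, trimmed them with Trimmomatic, aligned them with HISAT2 and counted them per gene in SeqMonk on P. vulgaris v2.1; the versions of the first 3 tools, and whether strand was used in counting, were not given in the sources used here. The deposited counts were whole numbers without normalization, in 1 table per genotype and tissue. Columns of the authors' p-values, adjusted p-values and log2 fold changes, which compare salt with control, were not used.

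The leaf and root tables were joined by gene. Genes with at least 1 count were tested with edgeR 4.0.16 in R 4.3.3 (TMM, glmQLFit, glmQLFTest, limma 3.58.1), two-sided, and p-values were adjusted over every tested gene by the Benjamini-Hochberg method; the thresholds, a change of more than 1 on the log2 scale in either direction and an adjusted p below 0.01, are those of the study's methods. Standard errors were derived from the F statistic. Each group had 3 libraries, and p-values measure the spread between them. At depths of 13087511 to 16742603 counts, a gene with 0 counts in all 3 libraries of a tissue was set to a floor of 3 counts per library for the "at least" ratios. This floor covers counting error only, and CPM values and fits used the counts as they were. Tested on simulated counts with 200 changed genes, the fit of the TR43477 controls recovered 0% of 4-fold changes (log2 2), 75% of those of log2 4 and 92.5% of those of log2 8, with 0, 0 and 4 unchanged genes called. These 200 were among 23690 to 23709 tested genes, whereas 5404 of 23906 were called in the data. Adjustment is stricter when fewer genes change, so these shares do not give the recovery in the data. The interaction recovered 0%, 78% and 92% of the same sizes.

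The genes of the lists and their names came from the study's tables, and their grouping into lists was not in every case the study's own. The reference table matched 0 of the files' identifiers, so genes outside those tables carry no name, and no sequence was used. The members and lists were chosen with earlier results of these data known. Named genes were, of each list, the 2 highest and 2 lowest log2 fold changes and any member called against most of its list; of all genes, the 10 largest changes in each direction whose mean count reached 50 and whose groups did not overlap, and the 10 highest mean CPM in each tissue; of the interaction, the 3 smallest adjusted p-values in each direction; and Actin-11 and the root markers. Of unnamed genes at most 2 that are higher and 2 that are lower were printed. Chosen after their values were seen were the Lhcb1 genes Phvul.004G091600, Phvul.004G092600, Phvul.004G093200, Phvul.002G154700 and Phvul.002G154500, the runs of neighbouring genes, and Phvul.001G098100, Phvul.009G006600, Phvul.005G050700, Phvul.009G223800, Phvul.005G051800, Phvul.006G155800, Phvul.002G100001, Phvul.009G240000, Phvul.L007443, Phvul.006G178300, Phvul.009G061600, Phvul.009G244200, Phvul.008G247600, Phvul.011G022300, Phvul.002G216200, Phvul.004G106900, Phvul.003G249800, Phvul.009G020300, Phvul.004G071500, Phvul.007G084600 and Phvul.011G107700.

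Alternatives were DESeq2 1.42.0, RLE and upper-quartile scaling, plain library totals, other filters, other edgeR tests, an adjusted p under 0.05, all 24 libraries in 1 fit, the replicate number as a block, and leaving out each library.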

Additional observations from a re-analysis of the deposited data

Results flagged for a closer look

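The leaf over root contrast differed between control TR43477 and control Ispir in 6 named genes, by the tissue by genotype interaction over the 12 control libraries (edgeR, adjusted by the Benjamini-Hochberg method). The log2 difference, TR43477 minus Ispir, was 5.687 for Phvul.008G071300 and 9.158 for Phvul.010G124800, both higher in leaf in TR43477 and higher in root in Ispir. For Phvul.010G124800, TR43477 had 9.90, 10.4 and 4.20 CPM in leaves, against 0.307, 0.203 and 0.0578 CPM in roots, and Ispir had 3.49, 3.02 and 5.14 CPM in leaves, against 65.3, 64.7 and 41.7 CPM in roots. The difference was -9.096 for Phvul.011G169332, higher in leaf in both genotypes, and -5.052 for Phvul.011G068000, where TR43477 had 1.05, 0.774 and 1.13 CPM in leaves, against 30.7, 58.0 and 64.5 CPM in roots, and Ispir had 13.1, 15.2 and 16.3 CPM in leaves, against 24.2, 24.1 and 25.5 CPM in roots. It was 2.813 for the glycolysis gene Phvul.009G006600 and -3.802 for the zinc transporter 10 gene Phvul.002G100001. These calls held in 12 of 12 leave-one-out fits, except that of Phvul.009G006600, which held in 3. The 6 genes were picked because this same test called them, among 119 of 24459 tested genes (0.487%). Leave-one-out fits reuse the same libraries and are no independent check. With the replicate number within genotype as a block, none of the 6 was called (adjusted p 0.0137 to 0.0747, edgeR).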

How the results depend on the processing

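All 24 libraries in 1 fit gave 9595 calls between leaf and root of control TR43477 (4455 higher in leaf, 5140 higher in root), DESeq2 8354 (3996 and 4358, with 5397 of the 5404 main calls among them and 193 adjusted p-values left as NA), the exact test 8297 (4320 higher in root), the likelihood ratio test 8630 (4489 higher in root) and an adjusted p under 0.05 8605 (4440 higher in root). RLE and upper-quartile scaling, library totals, both filters and glmTreat kept the count within 1.5 times. Leaving out 1 library gave 2594 to 6888 calls, 1458 to 3143 higher in leaf and 1136 to 3745 higher in root, and 2369 calls (1317 and 1052) held in every such fit. Deviations of same-numbered leaf and root libraries had correlations of 0.02, -0.18 and 0.08, and not every sample correlated best with its own number. With 3 libraries per tissue these values cannot show whether a number marks 1 plant. With the replicate block 2745 genes were called (1654 higher in leaf, 1091 higher in root), 2666 of them shared with the fit without the block. The interaction had 119 calls, but 1142 with DESeq2 (649 and 493), 877 with all 24 libraries in 1 fit (473 and 404), and 0 with the replicate block by number within genotype (0 and 0), where 3255 genes had an unadjusted p under 0.05, beside 4320 without it; leaving out 1 library gave 16 to 165 calls, 10 to 96 with the difference higher in TR43477 and 6 to 69 lower. With the block, the adjusted p of the 6 interaction genes above was 0.0137 to 0.0747. Ispir had 7064 to 10020 calls and salt-treated TR43477 11112 to 11365 without 1 library, and neither these counts (7 of 7 alternatives) nor the photosynthesis share (6 of 6) moved past 1.5 times or its replicate spread. Over 183 genes named by the rule or added to it and all alternatives, 3116 values kept their direction and their side of the threshold, 236 lost the call and 102 gained one. A further 9 values in alternative fits turned in direction, none of them called: Phvul.003G042200 was -0.10 with library totals; Phvul.008G034033 was -0.14 with upper-quartile scaling, -0.43 with library totals, and -0.40 to -0.03 without leaf 1, leaf 3, root 1 or root 2 (-0.40 to 0.92 over all leave-one-out fits); Phvul.002G048500 was -0.53 without leaf 3 (up to 5.16 without leaf 1); and Phvul.003G096700 was 5.07 without root 3 (down to -10.59 without leaf 3). The cause was not tested. In simulated counts, where far fewer genes changed than were called in the data, no change of log2 2 was recovered. In the data 497 leaf-higher and 286 root-higher genes were called at a size of 1 to 2. A missed call at that size does not show that leaf and root were alike.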
